A study of Mus musculus with 8 samples.

Results

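Anpep and 9 other genes for amino- and dipeptidyl peptidases, enzymes that clip residues from the front end of proteins and peptides, were described in RAW264.7 cells grown on structured or smooth polyetheretherketone (PEEK). The 10 genes were taken by symbol, and all 10 had a row in the table of 26848 genes: Anpep, Lnpep, Npepps, Lap3, Rnpep, Dpp4, Dpp7, Dpp8, Dpp9 and Lta4h. Anpep was chosen by its own difference between the surfaces, and the other 9 by their function, to set beside it. The values of the 10 genes in that comparison are therefore given as a description, without a p-value. RAW264.7 is a mouse macrophage-like line that came from a tumour induced by Abelson leukaemia virus. PEEK is a polymer of bone implants, and the 4 structured libraries came from cells on a surface shaped at the nanometre and micrometre scale, while the 4 smooth libraries came from cells on a surface without that relief. Both groups were otherwise labelled alike, as RAW264.7 macrophages, with no further treatment, time in culture or genotype given, and they model an implant surface with 1 cell line and no other cells. The titles mark all but the first library of each surface as a biological replicate. They do not say whether the replicates came from separate cultures, so p-values reflect how far these libraries spread, and that spread may be technical.

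Aminopeptidases remove 1 residue at a time from the amino end of a peptide, and dipeptidyl peptidases remove a pair of residues, usually after a proline or an alanine. Anpep encodes aminopeptidase N, also called CD13, a zinc enzyme held in the plasma membrane of monocytes, macrophages and granulocytes with its active site outside the cell. It trims peptide hormones, chemokines and peptides bound at the cell surface, and antibodies to CD13 are widely used to recognise myeloid cells. Lnpep, Npepps, Rnpep and Lta4h belong to the same M1 family of zinc enzymes, Lap3 is a leucine aminopeptidase of another family, and the Dpp enzymes are serine peptidases.

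The promoters of 4 genes are shown because they cover the range of levels and differences below: Anpep differed most between the surfaces, Lap3 had the highest level, Rnpep crossed Anpep in the order of levels, and Dpp4 was close to 0. Each sequence is the RefSeq window (GRCm38.p6) of 250 bases before and 50 bases after the annotated start, 5′ to 3′ on the strand of the gene. The windows lie at chr7:79848161-79848460 (minus strand) for Anpep, chr5:45493124-45493423 (plus strand) for Lap3, chr1:135284035-135284334 (minus strand) for Rnpep and chr2:62412182-62412481 (minus strand) for Dpp4. For these 4 genes the deposited table puts the gene's 5′ end on the same base as RefSeq. Capitals mark matches on either strand to 5 short motifs: GGGCGG (the GC box), AGGAAG (a core bound by ETS factors such as PU.1), TGANTCA (the AP-1 core), CCAAT and TATAAA. None of the marked matches overlap each other.
Anpep: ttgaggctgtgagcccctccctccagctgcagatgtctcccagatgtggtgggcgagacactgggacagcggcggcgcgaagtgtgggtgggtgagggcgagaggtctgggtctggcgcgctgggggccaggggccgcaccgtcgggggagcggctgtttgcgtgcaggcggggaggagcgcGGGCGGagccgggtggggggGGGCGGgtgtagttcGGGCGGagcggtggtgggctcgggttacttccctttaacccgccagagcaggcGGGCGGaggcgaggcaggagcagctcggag
Lap3: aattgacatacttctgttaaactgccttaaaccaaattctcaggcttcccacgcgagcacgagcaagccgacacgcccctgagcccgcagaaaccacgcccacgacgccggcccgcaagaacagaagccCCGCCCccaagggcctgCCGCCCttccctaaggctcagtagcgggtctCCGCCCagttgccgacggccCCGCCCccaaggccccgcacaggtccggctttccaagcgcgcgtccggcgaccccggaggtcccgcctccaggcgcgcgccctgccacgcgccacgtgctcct
Rnpep: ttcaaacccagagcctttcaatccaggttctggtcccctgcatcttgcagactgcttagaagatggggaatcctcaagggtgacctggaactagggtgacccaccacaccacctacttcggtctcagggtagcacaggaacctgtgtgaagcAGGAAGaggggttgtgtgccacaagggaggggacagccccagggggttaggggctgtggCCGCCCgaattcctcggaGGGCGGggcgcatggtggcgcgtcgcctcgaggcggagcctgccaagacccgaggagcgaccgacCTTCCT
Dpp4: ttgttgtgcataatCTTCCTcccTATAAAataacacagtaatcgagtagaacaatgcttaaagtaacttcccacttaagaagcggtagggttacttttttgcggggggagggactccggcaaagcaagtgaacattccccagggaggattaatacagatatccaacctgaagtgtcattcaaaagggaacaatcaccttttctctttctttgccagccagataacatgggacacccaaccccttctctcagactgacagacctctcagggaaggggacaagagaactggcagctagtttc

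The Anpep window was rich in G and C, at 72.3%, and held 28 CpG pairs, against a median of 53.0% and 7 CpG pairs over 32544 RefSeq promoter windows of mouse. It held 4 matches to GGGCGG and no match to the other 4 motifs. The Lap3 window had 68.3% G and C, 33 CpG pairs and 4 matches to GGGCGG. The Rnpep window had 62.0% G and C and 14 CpG pairs, with 2 matches each to GGGCGG and AGGAAG, and the Dpp4 window had 45.3% G and C and 4 CpG pairs, with 1 match each to AGGAAG and TATAAA. Across all windows, GGGCGG was found in 35.9%, AGGAAG in 35.1%, TGANTCA in 7.79%, CCAAT in 37.4% and TATAAA in 13.6%. All 10 genes had a window; GGGCGG occurred 11 times in that of Npepps, and CCAAT occurred 2 times each in those of Dpp9 and Lta4h. A match describes these letters alone and says nothing about binding in these cells.

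Anpep RNA was lower in every structured library than in any smooth library, and no other gene of the set with a level above 1 FPKM differed as much. Its level per length was 15.4, 15.7, 16.0 and 14.1 FPKM in structured 1 to 4, against 21.9, 22.8, 24.7 and 23.4 FPKM in smooth 1 to 4. FPKM is the deposited fragment count scaled to gene length and to library depth. The highest structured library lay well below the lowest smooth library, and structured 4 was the lowest of all. The means were 15.3 ± 0.822 FPKM on the structured surface and 23.2 ± 1.19 FPKM on the smooth surface (SD, n = 4 each), a ratio of 0.660, or a relative difference of -34.0%. As CPM, the deposited counts scaled to library size after TMM adjustment and not to gene length, the means were 67.5 ± 3.73 on structured and 103 ± 6.34 on smooth PEEK. The fitted log2 fold change, structured minus smooth, was -0.60 ± 0.05 (SE, edgeR), with a 95% interval of -0.72 to -0.48. It was between -0.64 and -0.57 under 20 other ways of processing. Anpep lies at chr7:79821803-79848210 on the minus strand (ENSMUSG00000039062). RNA was measured in bulk, so fewer cells with Anpep RNA and less Anpep RNA per cell cannot be told apart.

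**Figure D1:**
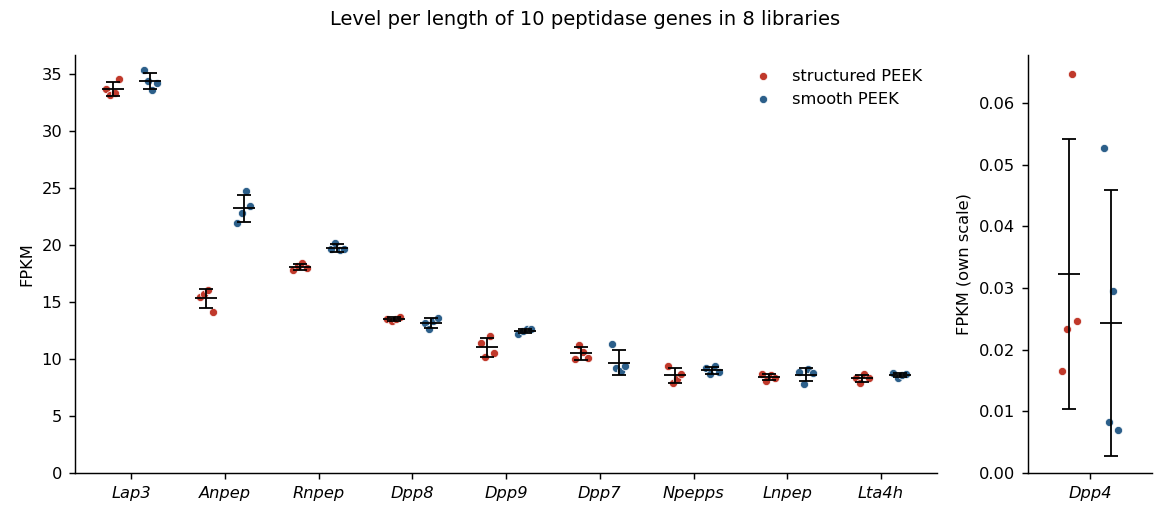
Level per length (FPKM) of the 10 peptidase genes in each of the 4 structured (red, left) and 4 smooth (blue, right) libraries; points are libraries, and bars are the mean and SD. Dpp4 has its own axis because it stayed below 0.1 FPKM, and Anpep averaged 15.3 FPKM on structured and 23.2 FPKM on smooth PEEK with no overlap between libraries.

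Lnpep and Dpp4 encode the other enzymes of the set that act at or near the cell surface. Lnpep is the insulin-regulated aminopeptidase, or oxytocinase, which cycles between vesicles and the plasma membrane. It had 8.63, 8.05, 8.55 and 8.36 FPKM in structured 1 to 4, against 8.81, 7.80, 9.07 and 8.75 FPKM in smooth 1 to 4. The groups overlapped, and smooth 2 was the lowest library. The log2 fold change was -0.04 ± 0.05, with a 95% interval of -0.15 to 0.06, and it was 0.04 once the trend with GC content and gene length was removed. Dpp4, or CD26, which cuts chemokines and incretin hormones after proline or alanine, was near the limit of detection. Its deposited counts were 8, 11, 32 and 11 units in structured 1 to 4, against 24, 4, 13 and 4 units in smooth 1 to 4. Since 1 fragment appears to count as about 4 units, these are a few fragments per library, and 3 fragments correspond to 0.166 to 0.186 CPM in these libraries. The level was 0.0323 ± 0.0219 FPKM on structured and 0.0243 ± 0.0215 FPKM on smooth PEEK (SD, n = 4 each). The log2 fold change of 0.43 had an interval of -1.19 to 2.04, so no difference of Dpp4 was detectable at this depth. Without structured 3 it was -0.17.

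Npepps, Lap3, Rnpep and Lta4h encode aminopeptidases that act mainly inside the cell. Npepps is the puromycin-sensitive aminopeptidase of the cytosol, which trims peptides released by the proteasome. It had 9.37, 7.91, 8.23 and 8.68 FPKM in structured 1 to 4, against 9.19, 8.71, 9.36 and 8.82 FPKM in smooth 1 to 4. The groups overlapped, with structured 1 the highest library of all, and the log2 fold change was -0.08 ± 0.05 (95% interval -0.20 to 0.03). Lap3, a cytosolic leucine aminopeptidase, had the highest level of the set, with 33.7, 33.1, 33.3 and 34.5 FPKM in structured 1 to 4, against 35.3, 34.4, 33.6 and 34.2 FPKM in smooth 1 to 4. These groups overlapped too, and the log2 fold change was -0.04 ± 0.03 (95% interval -0.11 to 0.04).

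Rnpep encodes aminopeptidase B, which removes arginine and lysine. It had 17.8, 18.1, 18.4 and 18.0 FPKM in structured 1 to 4, against 19.6, 20.2, 19.5 and 19.6 FPKM in smooth 1 to 4. The groups did not overlap, and the difference was small: the means differed by -8.37%, with a log2 fold change of -0.13 ± 0.03 (95% interval -0.20 to -0.06). It was between -0.15 and -0.10 under the other ways of processing. Lta4h is an enzyme with a double role, since it makes leukotriene B4, a chemoattractant of neutrophils, and also acts as an aminopeptidase. It had 8.32, 7.85, 8.63 and 8.36 FPKM in structured 1 to 4, against 8.80, 8.32, 8.58 and 8.63 FPKM in smooth 1 to 4. The groups overlapped, and the log2 fold change was -0.06 ± 0.04 (95% interval -0.15 to 0.04).

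The dipeptidyl peptidases inside the cell lay on both sides of 0. Dpp7, or DPP II, of lysosomes and other vesicles, had 10, 11.2, 10.6 and 10.1 FPKM in structured 1 to 4, against 11.3, 9.17, 8.90 and 9.33 FPKM in smooth 1 to 4. Smooth 1 was the highest library and the other smooth libraries were the lowest, so the groups overlapped, and the log2 fold change was 0.11 ± 0.07 (95% interval -0.04 to 0.27). Dpp8, a cytosolic enzyme, had 13.5, 13.3, 13.5 and 13.7 FPKM in structured 1 to 4, against 13.1, 12.6, 13.3 and 13.6 FPKM in smooth 1 to 4, and a log2 fold change of 0.03 ± 0.04 (95% interval -0.05 to 0.11). Its groups overlapped as well. Dpp9, the close relative of Dpp8 that restrains the NLRP1B inflammasome in mouse macrophages, had 11.4, 10.2, 12 and 10.5 FPKM in structured 1 to 4, against 12.2, 12.4, 12.6 and 12.6 FPKM in smooth 1 to 4. All 4 structured libraries lay below the smooth libraries, structured 3 by little. The means differed by -11.5%, and the log2 fold change was -0.18 ± 0.05 (95% interval -0.29 to -0.07). That value moved to -0.09 with the GC and length trend removed.

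**Figure D2:**
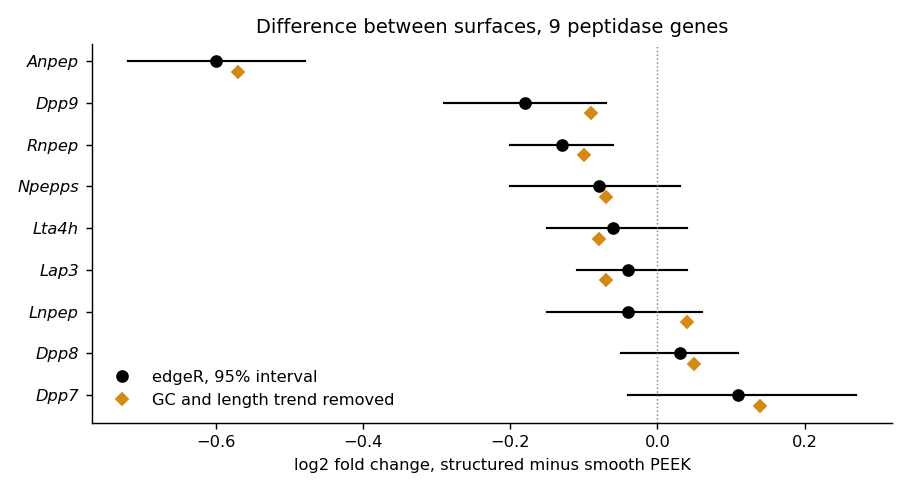
Log2 fold change, structured minus smooth, of 9 of the 10 peptidase genes (Dpp4, with an interval of -1.19 to 2.04, is left out for scale). Black points and bars are the edgeR value and its 95% interval, and diamonds are the value with the GC and length trend removed; Anpep lies at -0.60 and the other 8 genes between -0.18 and 0.11.

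All 10 genes passed the filter on low counts and were tested with 16006 genes in all. Of the 10, 1 (Anpep, lower on the structured surface) was past a Benjamini-Hochberg adjusted p of 0.05 in edgeR, or 10% of the set. The share over all tested genes was 3.75%, and 2.75% for genes lower on the structured surface. DESeq2 placed 3 of the 10 past the same threshold (Anpep, Rnpep and Dpp9, all lower), where its share over all genes was 8.95%. Since Anpep was chosen on this comparison, nothing is read from these counts. The CPM ranges of the surfaces were apart for 3 of the 10 genes (Anpep, Rnpep and Dpp9), in each with the structured libraries lower. Over all tested genes that share was 12.2%, and 7.03% for genes with every structured library below every smooth library. The log2 fold change was negative for 7 of the 10 genes and positive for 3, with a median of -0.05, or -0.04 without Anpep. The median over all tested genes was 0.01, and over the 7062 tested genes with a mean of at least 5 FPKM it was 0.02, 8 of which had a lower log2 fold change than Anpep. Within a surface, the coefficient of variation of the FPKM values was 1.02% to 11.2% for the 9 genes other than Dpp4.

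The order of the levels was Lap3, Rnpep, Anpep, Dpp8, Dpp9, Dpp7, Npepps, Lnpep, Lta4h and Dpp4 on the structured surface, from highest to lowest FPKM. On the smooth surface it was Lap3, Anpep, Rnpep, Dpp8, Dpp9, Dpp7, Npepps, Lnpep, Lta4h and Dpp4. Anpep and Rnpep thus changed places, in every library: Anpep lay below Rnpep in all 4 structured libraries and above it in all 4 smooth libraries. Several neighbours in these orders had ranges over the libraries that overlapped. On the structured surface the ranges of Dpp9 and Dpp7, of Npepps and Lnpep, and of Lnpep and Lta4h overlapped. On the smooth surface those of Dpp8 and Dpp9, of Dpp7 and Npepps, of Npepps and Lnpep, and of Lnpep and Lta4h overlapped. Within single libraries, Dpp8 still lay above Dpp9, and Npepps above Lnpep, in all 4 smooth libraries. The other overlapping pairs kept their order in 2 or 3 of 4 libraries. The sum of the FPKM values over the 10 genes was 127 ± 1.65 on the structured and 139 ± 1.63 on the smooth surface (SD, n = 4 each). Anpep made up 12 ± 0.605% of the sum on the structured surface and 16.7 ± 0.855% on the smooth surface, and the other 9 genes added up to 112 ± 1.53 FPKM on structured and 116 ± 1.94 FPKM on smooth PEEK.

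Ratios within a library do not depend on its scaling. The log2 ratio of Anpep to Rnpep, on the FPKM scale, was -0.24 ± 0.07 in the structured and 0.23 ± 0.08 in the smooth libraries (SD, n = 4 each). The log2 ratio of Anpep to Lap3 was -1.14 ± 0.11 in the structured and -0.57 ± 0.10 in the smooth libraries. Against each of the 8 genes other than Dpp4 the ratio was lower in every structured library than in any smooth library, and the difference of the means was smallest against Dpp9, at -0.42, and largest against Dpp7, at -0.72. These ratios share the Anpep values and show unequal differences between genes, not that any single gene stayed the same.

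**Figure D3:**
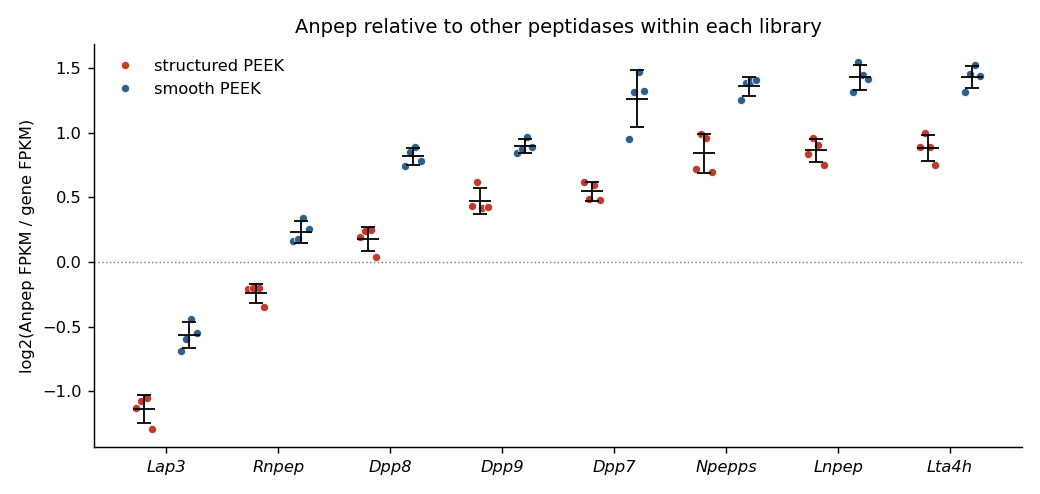
Log2 ratio of the Anpep FPKM to the FPKM of 8 other peptidase genes within each of the 4 structured (red, left) and 4 smooth (blue, right) libraries; points are libraries, bars are the mean and SD, and the dotted line marks equal levels. The structured libraries lie below the smooth libraries for every gene, and the ratio to Rnpep is below 0 in structured and above 0 in smooth libraries.

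Across the 8 libraries, the log2 CPM of Rnpep and Dpp9 followed that of Anpep most closely within the set, with Pearson correlations of 0.94 and 0.86. These include the difference between the surfaces. After the mean of each surface was removed the correlations were 0.38 and 0.52, and that of Lap3 was -0.89, each over the same 8 libraries, which share their scaling. Of the tested genes with a mean of at least 5 FPKM, 6553 were left once symbols of clones and predicted genes were set aside, and the 5 of these whose log2 CPM was most like that of Anpep over the 8 libraries were Vac14, Zmiz1, Ogdh, Trrap and Npc1. This choice favours genes that differ between the surfaces and genes that follow Anpep within a surface. Their differences and both correlations are therefore given as values alone. Vac14, a scaffold of the complex that makes a phosphoinositide of endosomes and lysosomes, had a correlation of 0.995 with Anpep, or 0.94 with the surface means removed. It had 12.2 ± 0.324 FPKM on the structured and 14.3 ± 0.297 FPKM on the smooth surface. Zmiz1, a coactivator of transcription, had a correlation of 0.994, or 0.96 with the means removed, with 13.6 ± 0.523 FPKM on structured and 16.6 ± 0.515 FPKM on smooth PEEK. Ogdh, a subunit of the oxoglutarate dehydrogenase complex, had 47.8 ± 1.05 FPKM on structured and 58.5 ± 1.92 FPKM on smooth PEEK. Trrap, a scaffold of histone acetyltransferase complexes, had 7.77 ± 0.215 FPKM on structured and 9.14 ± 0.288 FPKM on smooth PEEK. Npc1, the cholesterol transporter of late endosomes, had 5.64 ± 0.278 FPKM on structured and 7.08 ± 0.136 FPKM on smooth PEEK. With the means removed, the correlation with Anpep was 0.84 for Ogdh, 0.91 for Trrap and 0.77 for Npc1. The log2 fold changes of these 5 genes were -0.33 to -0.24, smaller in size than that of Anpep. With the GC and length trend removed they were -0.15 for Vac14, -0.19 for Zmiz1, -0.27 for Ogdh, -0.10 for Trrap and -0.30 for Npc1.

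Genes around Anpep on chromosome 7 were set beside it. The table lists 12 genes with a base within 100 kb, of which 6 were tested. Of these, 0 passed the adjusted threshold in edgeR, DESeq2 or limma voom, and 0 had an unadjusted p under 0.05 in edgeR. Over all tested genes, 3.75% passed the adjusted threshold in edgeR and 18.7% had an unadjusted p under 0.05. DESeq2 gave no adjusted p to genes with few counts, Plin1 among them, so it could not call these. The nearest tested gene with a level above 1 FPKM, Ap3s2, a subunit of the AP-3 adaptor of vesicles, lies 27115 bases away and had 5.20 ± 0.273 FPKM on the structured and 5.15 ± 0.258 FPKM on the smooth surface. Its log2 fold change was 0.01 ± 0.06. Arpin, an inhibitor of the Arp2/3 complex of actin, had 4.66 ± 0.434 FPKM on structured and 4.83 ± 0.601 FPKM on smooth PEEK, with a log2 fold change of -0.06 ± 0.11. Pex11a, a peroxisome gene, had 1.3 ± 0.201 FPKM on structured and 1.58 ± 0.0878 FPKM on smooth PEEK, with a log2 fold change of -0.29 ± 0.14. The other 3 tested genes, Plin1, Gm44705 and Gm44950, lay below 1 FPKM. Their log2 fold changes were -1.53 ± 0.98 for Plin1, -1.02 ± 0.56 for Gm44705 and -0.15 ± 0.35 for Gm44950. For Plin1 and Gm44705 every structured library lay below every smooth library, as for 7.03% of all tested genes. The counts were 0 to 62 units on structured and 65 to 95 units on smooth PEEK for Plin1. For Gm44705 they were 4 to 9 units on structured and 13 to 15 units on smooth PEEK. The sources used here do not say whether the counting was strand-specific, so reads in overlapping genes may be shared. The predicted gene Gm44974 lies within Anpep on the same strand and was at 0 in the 4 structured libraries, against 0.0316 ± 0.0395 FPKM in the smooth libraries. The antisense genes Gm11592 at Npepps, Gm26642 at Rnpep and Gm47350 at Dpp8 also overlap genes of the set, and all lay below 1 FPKM in every library.

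Of 44 further peptidase genes listed by function, 42 had a row and 34 were tested. None passed the adjusted threshold in edgeR or in limma voom, and 2 did in DESeq2 (Metap1d higher and Cpd lower on the structured surface). Over all tested genes, 3.75% passed it in edgeR and 8.95% in DESeq2. At an unadjusted p of 0.05 in edgeR, 7 of the 34 passed, or 20.6%, against 18.7% of all tested genes. On the structured surface Blmh, Metap2, Metap1d, Prepl and Prcp were higher among them and Rnpepl1 and Cpd lower, named here because of their values. Their median log2 fold change was 0.01, with 17 genes positive and 17 negative, and the 26 genes with a mean of at least 1 FPKM lay between -0.16 and 0.20. Trhde and Fap were not analysed here.

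The other M1 aminopeptidases (5 tested) included Erap1, which trims peptides for MHC class I in the endoplasmic reticulum, with 8.48 ± 0.254 FPKM on structured and 8.00 ± 0.317 FPKM on smooth PEEK (log2 fold change 0.08 ± 0.05, edgeR BH-adjusted p = 0.428). Aopep, or aminopeptidase O, had 6.37 ± 0.155 FPKM on structured and 6.0 ± 0.325 FPKM on smooth PEEK (0.08 ± 0.05, adjusted p = 0.406). Enpep, or aminopeptidase A, and Lvrn, which are also membrane enzymes of this family, lay below 0.1 FPKM in every library. Of the other surface and secretory peptidases, Mme (CD10), Ace and the gamma-glutamyl transferases Ggt1 and Ggt5 also lay below 0.1 FPKM in every library. Cpm, a carboxypeptidase of macrophage membranes, had 0.284 ± 0.0746 FPKM on structured and 0.326 ± 0.0503 FPKM on smooth PEEK. Anpep was thus the membrane aminopeptidase with the highest level among those measured here, on both surfaces. Cpd, a carboxypeptidase of the trans-Golgi network that acts on the other end of proteins, had 41.1 ± 2.06 FPKM on structured and 45.7 ± 0.974 FPKM on smooth PEEK, with a log2 fold change of -0.16 ± 0.04 and an edgeR BH-adjusted p of 0.0652. Under the other ways of processing its adjusted p was 0.00436 to 0.255.

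The intracellular peptidases named next were those with the highest levels in their lists, apart from Metap1d. Metap2, which removes the initiator methionine from new proteins, had 45.5 ± 1.52 FPKM on structured and 42.5 ± 2.17 FPKM on smooth PEEK (log2 fold change 0.09 ± 0.04, edgeR BH-adjusted p = 0.264). Npepl1, a leucine aminopeptidase-like gene, had 36.6 ± 2.26 FPKM on structured and 35.8 ± 2.41 FPKM on smooth PEEK. Cndp2, a cytosolic dipeptidase, had 30.8 ± 1.78 FPKM on structured and 30.8 ± 1.24 FPKM on smooth PEEK. Ide, the insulin-degrading enzyme, had 26.8 ± 0.898 FPKM on structured and 26.8 ± 1.48 FPKM on smooth PEEK, with a log2 fold change of 0.00 ± 0.05. Prep, the prolyl oligopeptidase, Dpp3, Pepd and Thop1 had log2 fold changes of -0.04, -0.05, 0.07 and -0.06. Metap1d, the mitochondrial methionine aminopeptidase, is named after its values were seen: it had 8.02 ± 0.294 FPKM on structured and 6.94 ± 0.425 FPKM on smooth PEEK, and its log2 fold change of 0.20 ± 0.05 had an edgeR BH-adjusted p of 0.0555.

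**Figure D4:**
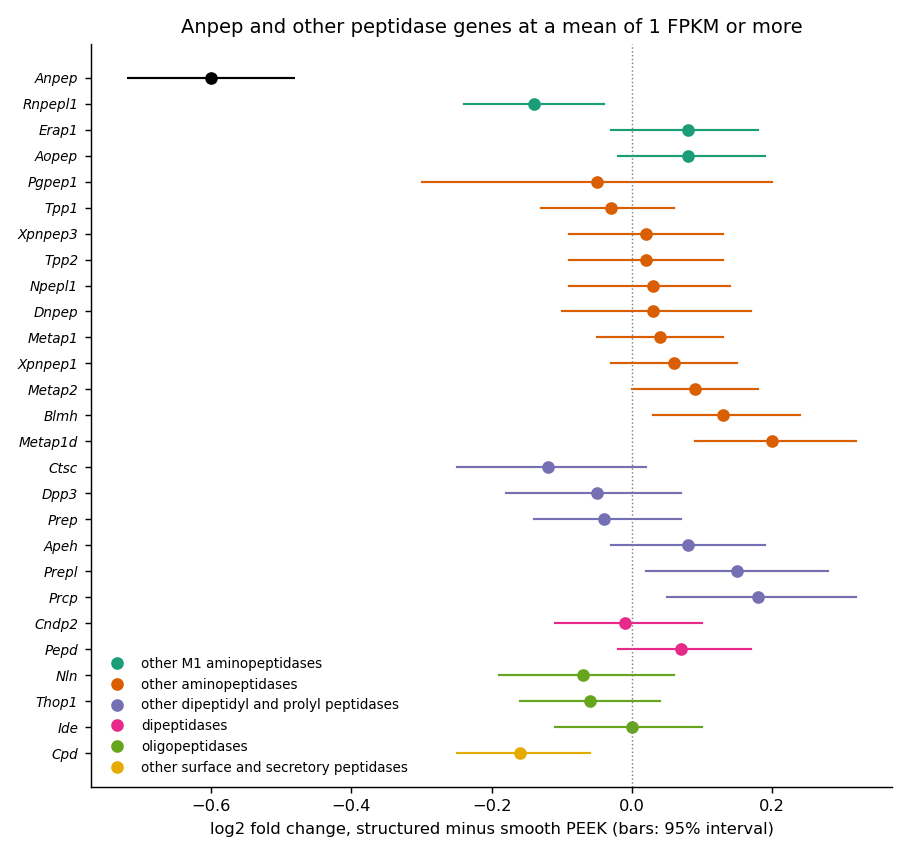
Log2 fold change, structured minus smooth, of Anpep (black) and of the 26 further peptidase genes with a mean of at least 1 FPKM, coloured by list; bars are 95% intervals. The 26 genes lie between -0.16 and 0.20, and Anpep lies at -0.60.

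Genes that act beside Lta4h in making and sensing leukotrienes were few in number. Of 9 with a row, Lta4h included, 6 were tested. Of the 6, 0 passed the adjusted threshold in edgeR, DESeq2 or limma voom, and 3.75% of all tested genes passed it in edgeR. Ltc4s had no adjusted p in DESeq2. At an unadjusted p of 0.05 in edgeR, 1 passed (Ptgr1, lower on the structured surface), or 16.7%, against 18.7% of all tested genes. Alox5ap, the protein that presents arachidonic acid to 5-lipoxygenase, had the highest level, with 67.6 ± 4.48 FPKM on structured and 72.0 ± 3.85 FPKM on smooth PEEK (log2 fold change -0.10 ± 0.06, edgeR BH-adjusted p = 0.412). Ptgr1, which inactivates leukotriene B4, had 16.6 ± 1.47 FPKM on structured and 19.6 ± 2.82 FPKM on smooth PEEK (-0.25 ± 0.10, adjusted p = 0.197). The leukotriene B4 receptor genes Ltb4r1 and Ltb4r2 were left out of the test for low counts.

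The libraries held 64479829 to 73098735 deposited count units each. Of the 16006 tested genes, 161 were higher and 440 lower on the structured surface, so that 73.2% of calls were lower. That share was 61.4% in DESeq2 and 55.1% after removal of the GC and length trend. As a background for the marker counts below, 3.75% of all tested genes were called in edgeR and 8.95% in DESeq2. At an unadjusted p under 0.05 in edgeR the share was 18.7%. Macrophage markers summed to 3280 to 3370 FPKM in the structured and 3110 to 3300 FPKM in the smooth libraries, 9 of the 10 lay above 1 FPKM in every library, and Mertk lay below 0.1 FPKM; 0 of 9 tested were called in edgeR, 1 in DESeq2, and 2 had an unadjusted p under 0.05. Neutrophil markers, of which 15 had a row, summed to 23.4 to 62.8 FPKM in the structured and 16.2 to 17.5 FPKM in the smooth libraries, without overlap. Of 7 tested, S100a8, S100a9, Ngp, Lcn2 and Mmp8 were called higher on the structured surface in edgeR, 4 were called in DESeq2, and 6 had an unadjusted p under 0.05 in edgeR. Of the 15 with a row, Ltf, Elane, Mpo and Prtn3 lay below 0.1 FPKM in every library. Neutrophils also carry Anpep, and the part of neutrophil transcripts in the Anpep values was not tested. The 16 skeletal muscle markers summed to 9.67 to 12.4 FPKM in the structured and 10.5 to 31.6 FPKM in the smooth libraries, and of 14 tested Ckm, Atp2a1 and Tnnc2 were called lower on the structured surface in edgeR and 0 in DESeq2, while 12 had an unadjusted p under 0.05 in edgeR. The part of these transcripts in the Anpep values was not tested either. The 17 hepatocyte markers summed to 65.9 to 249 FPKM in the structured and 40.8 to 184 FPKM in the smooth libraries, with 0 called in edgeR or DESeq2 and 3 at an unadjusted p under 0.05. Markers of fibroblasts and lymphocytes summed to at most 0.578 and 1.40 FPKM in any library, with 0 called in either tool and 0 at an unadjusted p under 0.05. DESeq2 may give no adjusted p at levels this low, so its count for these markers may be fixed in advance. Without the 3 libraries highest in hepatocyte markers (structured 3, structured 4 and smooth 1) the log2 fold change of Anpep was -0.61. This split was chosen after seeing the data, and the part of hepatocyte transcripts in the Anpep values was not tested.

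**Figure D5:**
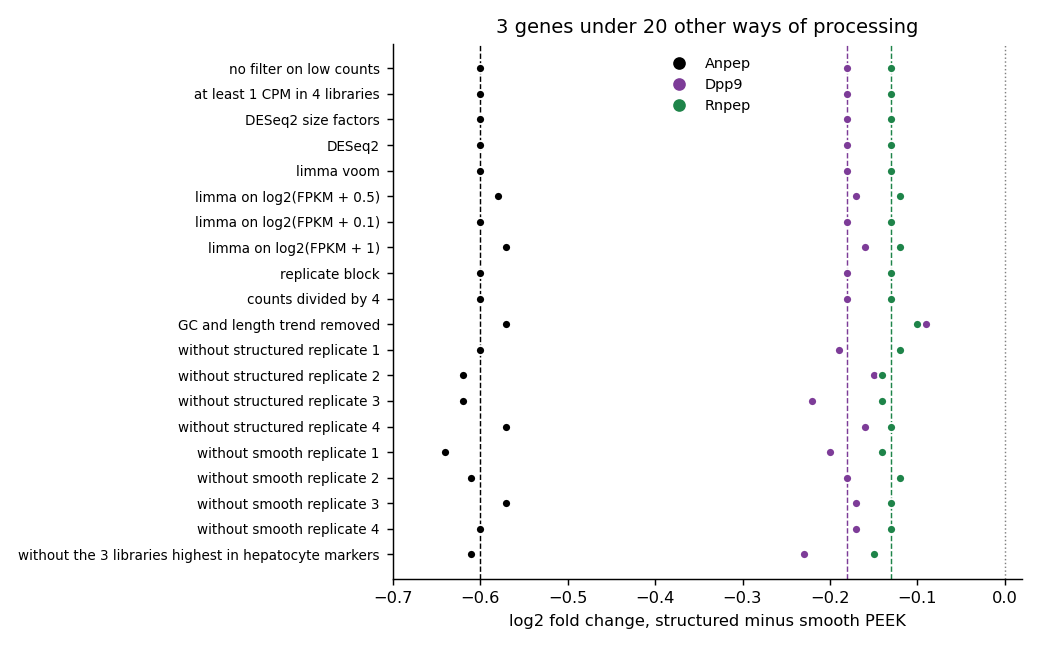
Log2 fold change, structured minus smooth, of Anpep (black), Dpp9 (purple) and Rnpep (green), the genes whose groups did not overlap, under each of 20 other ways of processing the same table (rows); dashed lines mark the reported values. Anpep stays between -0.64 and -0.57, Dpp9 between -0.23 and -0.09 and Rnpep between -0.15 and -0.10.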

How the data were processed

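RNA of 4 structured and 4 smooth libraries was selected on oligo(dT) beads, its second strand marked with dUTP, and read as pairs of 150 bases, per the labels' protocols. Per the submitters' processing notes, cutadapt 1.9 trimmed the reads and HISAT2 2.2.1 aligned them. How fragments were counted, whether by strand or by the molecular identifiers of the adapters, and with which annotation and build, is not given in the sources used here. Gene positions are printed as in the table, in which 23236 of 26848 genes have the coordinates of GENCODE M21 (GRCm38).

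The authors deposited estimated counts per gene, rounded to whole numbers and not normalized, and FPKM values normalized to length and depth, per the file headers. Multiples of 4 are in excess among low counts: 8018 values were 4, against 3344 that were 3 and 2180 that were 5. A fragment therefore appears to count as about 4 units. Levels are compared between genes in FPKM alone.

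Counts were tested with edgeR 4.0.16 under R 4.3.3: filterByExpr with a minimum count of 10 (10842 genes left out), TMM scaling, and a two-sided quasi-likelihood test over all genes, structured minus smooth, and p-values were adjusted after Benjamini and Hochberg (BH) to a threshold of 0.05. Alternatives were other filters, DESeq2 1.42.0 and its size factors, voom and log2(FPKM + 0.5, 0.1 or 1) in limma 3.58.1, a replicate block, counts divided by 4, removal of the GC and length trend, and each library left out. Leaving out 3 libraries together was chosen after seeing the data. DESeq2 gave no adjusted p to genes with few counts, such as Dpp4 and Cpm, and these enter its counts as not called. Library numbers come from the library names. No label says that a number marks a shared day or culture, so the main test did not pair libraries by number. Same-numbered libraries did not deviate together, but so few libraries cannot show that they were unpaired.

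The 10 genes, the gene lists and the markers were chosen with earlier results of these data known. Named genes are the 10, every called gene of a list or else its 2 with the highest FPKM, the 5 most like Anpep, and genes that overlap the 10 or lie near Anpep. Dpep2 has 2 rows, and the row with the higher count was used. The 95% intervals of fold changes come from the edgeR fit and include the spread between libraries, while the floor of 3 fragments covers counting error only. Figures were drawn with matplotlib 3.10.9.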

Additional observations from a re-analysis of the deposited data

Results flagged for a closer look

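Among 35 genes named here, looked at on each surface, 5 sets of 4 libraries held a library far from the other 3. Chance gives such a library in about 1 in 20 groups, and 70 groups were looked at. Dpp4 had 0.455 CPM in structured 3, against 0.115 to 0.171 CPM in the other structured libraries, all at or below a few fragments. Npepl1 had 127 CPM in structured 3, against 113 to 114 CPM in the other structured libraries. Cndp2 had 149 CPM in smooth 2, against 136 to 138 CPM in the other smooth libraries. Pex11a, the neighbour of Anpep, had 5.49 CPM in structured 2, against 4.05 to 4.10 CPM in the other structured libraries. Pex11a also had 5.04 CPM in smooth 3, the lowest smooth library, against 5.51 to 5.60 CPM in the others. No library of Anpep stood apart in this way on either surface.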

How the results depend on the processing

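Anpep was past the threshold, and lower on the structured surface, in all 20 alternatives, which reuse the comparison it was chosen on and so are no independent evidence. Over all genes, 601 were called. The count was 189 without a filter on low counts, 1433 in DESeq2, 191, 242 and 187 in limma on log2(FPKM + 0.5, 0.1 and 1), 356 after removal of the GC and length trend, 186 without the 3 libraries highest in hepatocyte markers, and 88 to 597 with 1 library left out. It was lowest without structured 4 (88), structured 2 (125), smooth 3 (166), smooth 4 (219), smooth 2 (240) and structured 1 (306), where fewer samples enter the fit. Of the 10 genes, 1 was called, against 2 with at least 1 CPM in 4 libraries (Rnpep added), 3 in DESeq2 (Rnpep and Dpp9 added), 2 with counts divided by 4 (Rnpep added), and 1 to 2 with 1 library left out (Dpp9 added without structured 3). Of the further peptidases, 0 were called, against 2 with at least 1 CPM in 4 libraries and 2 in DESeq2 (Cpd and Metap1d), 1 with the replicate block (Cpd), 1 with counts divided by 4 (Metap1d), and 0 to 1 with 1 library left out (Cpd without structured 3). Of the leukotriene genes, 0 were called in all 20. Signs changed for Lnpep and Dpp4 alone among the 10, and Dpp4, with -0.17 to 1.11, gave no value under 2 alternatives whose filter removed it. Cpd and Metap1d among the further peptidases, and Vac14 and Trrap among the 5 genes most like Anpep, changed their side of the threshold. With the replicate block, 499 genes were called over all genes, and Anpep was the 1 gene called of the 10. Same-numbered libraries had correlations of -0.156, 0.176, 0.0184 and -0.172 in their deviations from the surface means, and 2 of 8 libraries correlated best with their own number. Depth limits Dpp4, Enpep, Lvrn, Mme and Ace, whose counts amount to a few fragments.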

Other observations

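The following peptidases, of lysosomes apart from Blmh, fall outside the rule by which genes were named and were chosen after their values were seen. The levels of Tpp1, Ctsc and Ctsh overlapped between the surfaces. Tpp1, a tripeptidyl peptidase whose loss causes a lysosomal storage disease, had 35.5 ± 1.65 FPKM on structured and 36.2 ± 0.627 FPKM on smooth PEEK (SD, n = 4 each), with a log2 fold change of -0.03 ± 0.04. Ctsc, the dipeptidyl peptidase that activates granule serine proteases, had 4.25 ± 0.216 FPKM on structured and 4.59 ± 0.260 FPKM on smooth PEEK, with a log2 fold change of -0.12 ± 0.06. Ctsh, an aminopeptidase of the cathepsin family, lay below 1 FPKM in every library. Blmh, bleomycin hydrolase, had 19.1 ± 0.445 FPKM on structured and 17.3 ± 1.03 FPKM on smooth PEEK without overlap, and Prcp, a prolyl carboxypeptidase of lysosomes, had 5.28 ± 0.152 FPKM on structured and 4.62 ± 0.350 FPKM on smooth PEEK, also without overlap. The edgeR BH-adjusted p was 0.163 for Blmh and 0.126 for Prcp, and neither was called in any of the 20 alternatives.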
